A study of Homo sapiens with 8 samples.

Results

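KDM3B knockdown was compared with its control in ATRA-treated NB4 cells, using the 4 of the 8 RNA-seq libraries whose labels give a differentiated stage. The labels name them shNC_ATRA and shKDM3B_ATRA, with 2 replicates each, and they are called scramble+ATRA and shKDM3B+ATRA here. NB4 is a leukemic cell line with the PML/RARα fusion. Both groups carried the lentiviral vector pLVX-shRNA2-puro after stable transduction and were exposed to 1 µM ATRA for 24 or 48 hours by the labels, which do not say which of these times a library had. The scramble+ATRA cells held the control vector (an empty vector by the labels, a scrambled shRNA by the study's methods), and the shKDM3B+ATRA cells an shRNA against KDM3B. The sources used here do not say which of the study's hairpins was sequenced, whether a line was a single clone, or whether the replicates were separate cultures, so the P-values measure the spread between these libraries, which may be technical. The other 4 libraries are the same lines without ATRA (scramble and shKDM3B).

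Acute promyelocytic leukemia (APL) is driven by PML/RARα, a fusion of the retinoic acid receptor α that holds granulocytic genes silent and arrests the cells as promyelocytes. All-trans retinoic acid (ATRA) at pharmacological doses releases this repression, leads to loss of the fusion protein and drives the cells towards neutrophil-like granulocytes, which turn on S100 proteins, NADPH oxidase subunits, chemoattractant receptors and retinoid-degrading enzymes and turn down early granule genes such as MPO. KDM3B is a demethylase that removes methyl groups from lysine 9 of histone H3 (H3K9). The comparison asks how the transcriptome of cells under ATRA differs when KDM3B is reduced.

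The 4 libraries held from 9708739 to 16882512 read pairs on genes. In scramble+ATRA replicate 1, 9.36% of the uniquely aligned pairs lay outside the counted genes, against 50.02 to 51.45% in the other 3 libraries and 8.49 to 9.62% in the untreated ones. The scramble+ATRA libraries also differed more from each other than the knockdown libraries did. Over 12664 genes that averaged 20 or more counts, the SD of the log2 ratio between replicates was 1.501 for scramble+ATRA and 0.312 for shKDM3B+ATRA. This spread moved with the exons that a gene shares with genes on the opposite strand. Among 5161 genes without such overlap at 5 or more CPM (read counts scaled to the normalized library size), the SD between the scramble+ATRA libraries was 0.525, and among 618 genes overlapped over more than 25% of their exon length it was 2.07. The SD between the knockdown libraries was 0.277 and 0.231 in the same genes. The library kit named in the labels does not mark strand, and the part of the read counting in this difference was not tested. A gene was called higher or lower only when its unadjusted P-value was under 0.05, its fold change was at least 1.5 and both knockdown libraries lay on the same side of both scramble+ATRA libraries. The last condition removed no gene, since the P-value and fold change alone gave the same 2 counts.

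Of 14281 genes tested, 345 (2.42%) were called higher and 624 (4.37%) lower in shKDM3B+ATRA. Without regard to the P-value, both knockdown libraries lay above both controls for 3724 genes (26.1%) and below both for 3358 (23.5%). The median log2 fold change of all genes was 0.03. At an adjusted p under 0.05, the edgeR quasi-likelihood fit (Benjamini-Hochberg) gave 0 genes, the smallest adjusted p being 0.502. An unadjusted P-value under 0.05 was found for 1383 genes. DESeq2 placed 129 higher and 268 lower genes under an adjusted p of 0.05, counting only genes that also met the fold change and separation conditions of a call. Among the 6546 genes without exon overlap on the opposite strand, an alternative added after seeing the data, 321 (4.90%) were called higher and 498 (7.61%) lower. Of these, 18 genes reached an adjusted p between 0.0176 and 0.0437 (edgeR quasi-likelihood, Benjamini-Hochberg). Without scramble+ATRA replicate 1, 1278 of 14709 genes (8.69%) were called higher and 1204 (8.19%) lower. Of the main calls, 290 of the 345 higher and 504 of the 624 lower genes were also called in that fit, and 325 and 602 in the fit without scramble+ATRA replicate 2. Far fewer were kept when a knockdown library was left out: 34 higher and 92 lower genes without shKDM3B+ATRA replicate 1, and 54 and 174 without replicate 2.

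**Figure D1:**
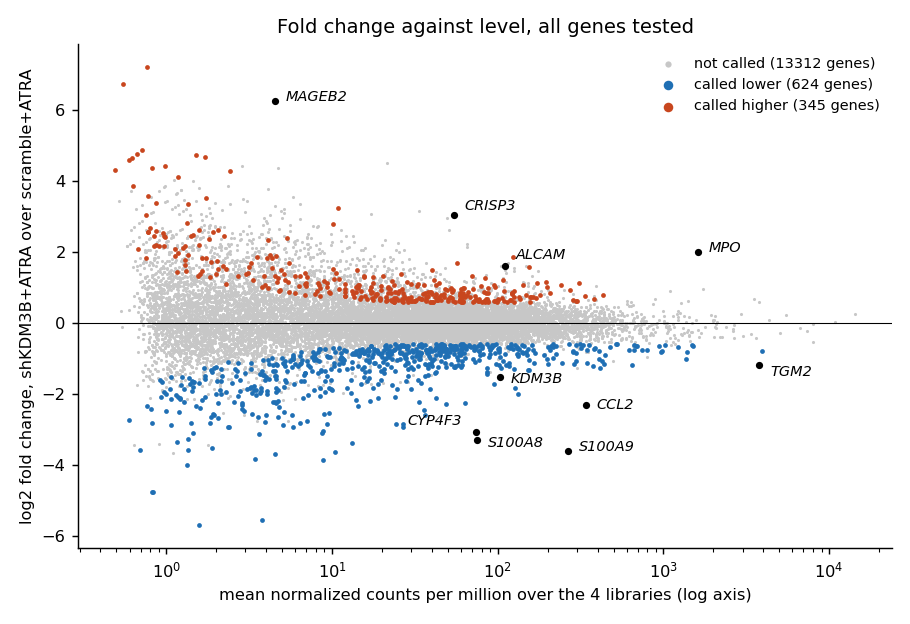
Each point is 1 of the 14281 genes tested, with the mean normalized CPM over the 4 libraries on a log axis and the log2 fold change of shKDM3B+ATRA over scramble+ATRA. Blue points are the 624 genes called lower, red points the 345 called higher and grey points the rest, and 10 genes described in the text are marked in black. S100A9 lies lowest among the marked genes, at -3.63, and MPO, at 1.995, lies among the most abundant genes.

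The targeted gene was checked first. KDM3B (chromosome 5 from 138352685 to 138437028, plus strand, in GENCODE v44 on hg38, as for all gene positions below) had 189 and 116 CPM in the scramble+ATRA libraries and 50.6 and 55.3 CPM in the shKDM3B+ATRA libraries. The groups did not overlap, although the controls differed more than the knockdown libraries. The log2 fold change was -1.53 with a standard error (SE) of 0.29, a 2.89-fold lower level, and it was -1.13 without scramble+ATRA replicate 1. KDM3B missed the P-value threshold without either knockdown library, at log2 fold changes of -1.46 and -1.59. Of 21 genes tested that write or remove H3K9 methylation, KDM3B was the only one called, against 4.37% lower and 2.42% higher among all genes. The number of these genes called changed with every library that was left out, so KDM3B being the only one holds for the fit of all 4 libraries. In the fit without opposite-strand overlap 2 of 13 were called lower, against 7.61% of all genes in that fit. KDM4B, another H3K9 demethylase, had a log2 fold change of -0.69, and SETDB2, an H3K9 methyltransferase, had 0.45, which is under the fold threshold.

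The largest falls included both calprotectin genes. The 15 leading lower genes, ranked by fold change among called genes with a mean of at least 5 CPM, lay between 7.10-fold and 14.5-fold below scramble+ATRA. S100A9 encodes a subunit of calprotectin, the calcium- and zinc-binding protein that fills the neutrophil cytosol, and was the most abundant of them. It had 462 and 515 CPM in scramble+ATRA and 33.5 and 45.6 CPM in shKDM3B+ATRA, a 12.4-fold lower level (log2 fold change -3.63, SE 0.22). S100A8, its partner in calprotectin, had 127 and 146 CPM in scramble+ATRA and 10.3 and 17.4 CPM in the knockdown (log2 fold change -3.30, SE 0.33). For both genes even the lower control library lay far above the higher knockdown library. S100A9 lies on chromosome 1 from 153357854 to 153361023 on the plus strand and S100A8 from 153390032 to 153391073 on the minus strand, and neither shares exons with the opposite strand.

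The promoter windows of S100A9, S100A8, CYP26A1 and CRISP3 are shown because the first 3 genes fell and CRISP3 rose, and because CYP26A1 is a textbook direct target of retinoic acid receptors. Each runs from 250 bases before to 50 bases after the start site of a RefSeq transcript (GRCh38.p14) and is written 5′ to 3′ on the strand of the gene. Capitals mark letters that match TTNNGNAA or its reverse TTNCNNAA, a pattern of C/EBP factors, or AGNTCA or its reverse TGANCT, the half-site of retinoic acid receptors.
S100A9, chr1:153357604-153357903, plus strand: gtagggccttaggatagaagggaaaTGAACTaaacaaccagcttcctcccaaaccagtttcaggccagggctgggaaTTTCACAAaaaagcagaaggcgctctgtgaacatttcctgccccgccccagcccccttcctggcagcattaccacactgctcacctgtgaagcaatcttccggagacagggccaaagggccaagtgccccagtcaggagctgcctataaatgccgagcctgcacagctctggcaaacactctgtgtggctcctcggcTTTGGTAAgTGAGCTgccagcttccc
S100A8, chr1:153391024-153391323, minus strand: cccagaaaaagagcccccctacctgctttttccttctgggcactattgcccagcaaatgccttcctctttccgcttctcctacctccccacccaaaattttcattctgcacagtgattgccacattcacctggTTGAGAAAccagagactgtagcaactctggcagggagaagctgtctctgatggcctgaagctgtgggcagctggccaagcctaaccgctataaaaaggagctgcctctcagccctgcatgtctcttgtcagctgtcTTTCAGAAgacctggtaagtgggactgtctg
CYP26A1, chr10:93073643-93073942, plus strand: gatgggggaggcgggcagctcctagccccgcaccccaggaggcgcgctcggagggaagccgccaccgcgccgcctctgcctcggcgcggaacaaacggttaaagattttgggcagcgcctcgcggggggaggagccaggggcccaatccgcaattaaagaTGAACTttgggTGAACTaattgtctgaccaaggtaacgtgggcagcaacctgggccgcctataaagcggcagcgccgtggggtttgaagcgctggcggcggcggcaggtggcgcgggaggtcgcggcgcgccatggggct
CRISP3, chr6:49744339-49744638, minus strand: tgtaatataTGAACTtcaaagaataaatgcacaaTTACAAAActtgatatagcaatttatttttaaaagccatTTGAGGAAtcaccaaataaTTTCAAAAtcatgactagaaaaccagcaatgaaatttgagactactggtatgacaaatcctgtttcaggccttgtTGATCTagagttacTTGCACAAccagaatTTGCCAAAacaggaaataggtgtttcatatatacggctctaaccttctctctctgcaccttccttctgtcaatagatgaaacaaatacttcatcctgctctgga

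The S100A9 and S100A8 windows each held 2 matches to the C/EBP-type pattern, the second of which lay after the start site, and the CRISP3 window held 5. The CYP26A1 window held 2 half-sites in the same orientation, with 5 bases between them, and 0 C/EBP-type matches. Half-sites were not particular to it, since the S100A9 and CRISP3 windows also held 2 each, and the S100A8 window 0. A window was found for 9529 of the 14281 genes tested. The C/EBP-type pattern was present in 24.5% of all these windows, in 28.8% of those of 452 genes called lower and in 23.9% of those of 238 called higher. The shares for the half-site were 29.2%, 34.96% and 26.5% in the same order. GAGGAA or its reverse TTCCTC, the core of PU.1 sites, was in 27.1%, 31.6% and 28.99%, and TGANTCA, the AP-1 site, in 4.26%, 6.42% and 4.62%. None of the 4 patterns is part of another, though matches may overlap, as GAGGAA does within a C/EBP-type match of CRISP3. These are matches of letters, counted on both strands, and no binding was measured.

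Other leading lower genes encode enzymes of lipid and retinoid signals. CYP4F3, the leukotriene B4 hydroxylase of neutrophils (chromosome 19 from 15640897 to 15662825, plus strand), had 115 and 151 CPM in scramble+ATRA and 15.03 and 16.36 CPM in shKDM3B+ATRA (log2 fold change -3.08, SE 0.20). CYP26A1, the enzyme that clears retinoic acid, had 9.63 and 8.30 CPM against 0.406 and 2.03 CPM (log2 fold change -2.87, SE 0.87). Its fall rested on 4 and 21 counts in the knockdown libraries, and the value moved between -4.43 and -2.13 as each library was left out.

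Surface receptors and adhesion molecules made up a further share of the leading lower genes. P2RY13, a receptor for ADP, had 41.4 and 53.1 CPM in scramble+ATRA and 6.09 and 6.29 CPM in the knockdown (log2 fold change -2.93, SE 0.23). FFAR2, the neutrophil receptor for short-chain fatty acids, had 41.7 and 43.5 CPM against 3.05 and 8.81 CPM, with knockdown libraries that differed from each other (log2 fold change -2.84, SE 0.61). ADGRE1 and ADGRE3, adhesion G protein-coupled receptors of myeloid cells, fell with log2 fold changes of -3.38 (22.5 and 25.9 CPM against 1.93 and 2.71) and -2.84 (45.8 and 48.6 CPM against 4.47 and 8.71). SELP, the P-selectin gene, had 14.1 and 18.8 CPM against 0.508 and 1.74 CPM, the largest fall of the 15 (log2 fold change -3.85, SE 0.74). SEMA4A, a semaphorin of immune cells, had 16.4 and 16.2 CPM against 2.23 and 2.23 CPM, the closest agreement within groups of the 15 (log2 fold change -2.86, SE 0.25).

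The remaining leading lower genes were S100B, SERPINA1, ORM1, BRD2 and TMPRSS4-AS1. S100B, another S100 protein, had 16.2 and 15.1 CPM in scramble+ATRA and 1.42 and 2.32 CPM in the knockdown. SERPINA1 encodes α1-antitrypsin, the inhibitor of neutrophil elastase, and had 7.92 and 12.5 CPM against 0.609 and 2.03 CPM. ORM1 encodes an acute phase glycoprotein stored in neutrophil granules, and its level (13.5 and 9.09 CPM against 1.42 and 1.74) is uncertain because ORM2 is a near-identical neighbour. BRD2 encodes a chromatin reader and shares 7.03% of its exon length with the opposite strand. TMPRSS4-AS1, now SMIM35, was named as a transcript antisense to TMPRSS4, and although GENCODE v44 places no exon opposite its own, its value is uncertain because the kit does not mark strand. All 15 genes were also called lower with each of the 4 libraries left out, and without scramble+ATRA replicate 1 their log2 fold changes lay between -4.03 and -2.51. Of the 12 without opposite-strand overlap, 7 reached an adjusted p under 0.05 when these genes were fitted alone (edgeR quasi-likelihood): S100A9, CYP4F3, P2RY13, S100A8, SEMA4A, TMPRSS4-AS1 and S100B.

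**Figure D2:**
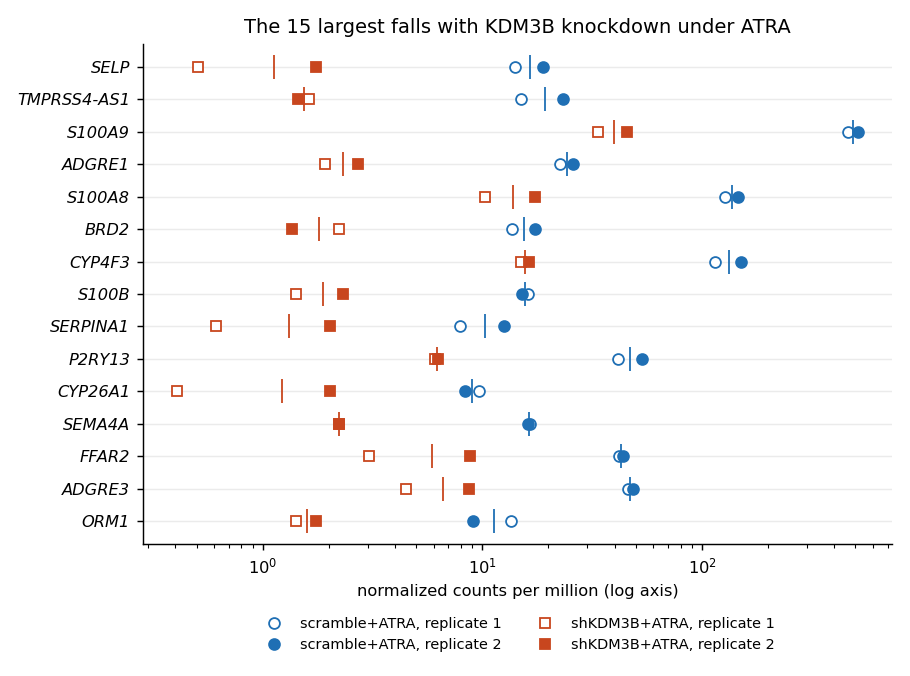
Normalized CPM (log axis) of the 15 genes with the largest falls, with circles for the scramble+ATRA libraries, squares for the shKDM3B+ATRA libraries and a vertical tick for the mean of each group. In every row both squares lie left of both circles, as a call requires. S100A9 moved from 462 and 515 to 33.5 and 45.6 CPM.

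The largest rises were in genes of several functions. MPO, the myeloperoxidase of promyelocyte azurophil granules (chromosome 17 from 58269855 to 58280935, minus strand), had 704 and 590 CPM in scramble+ATRA and 3016 and 2139 CPM in shKDM3B+ATRA, a 3.99-fold higher level (log2 fold change 1.995, SE 0.24). CRISP3, a cysteine-rich secretory protein stored in neutrophil specific granules (chromosome 6 from 49727376 to 49744437, minus strand), had 9.46 and 13.9 CPM against 108 and 85.2 CPM, an 8.26-fold higher level (log2 fold change 3.05, SE 0.29). ALCAM, a cell adhesion molecule of the immunoglobulin family, had 55.8 and 53.6 CPM against 166 and 167 CPM, with little spread in either group (log2 fold change 1.61, SE 0.11). The 3 genes share no exon with the opposite strand.

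GRB10, an adaptor that binds insulin receptor kinases, had 29.6 and 24.1 CPM in scramble+ATRA and 88.3 and 86.6 CPM in the knockdown (log2 fold change 1.70, SE 0.16). FAM46A (now TENT5A), a poly(A) polymerase, had 49.9 and 56.9 CPM against 222 and 163 CPM, and its relative FAM46C (now TENT5C) had 3.25 and 4.33 CPM against 10.97 and 9.10 CPM. SESN3, a sestrin that restrains mTORC1, had 70.8 and 81.9 CPM against 266 and 195 CPM. TFEC, a transcription factor of the MiT family, had 2.84 and 2.30 CPM against 22.9 and 12.8 CPM (log2 fold change 2.79, SE 0.43). That the 2 groups were apart in these genes follows from the rule for a call. The knockdown libraries of TFEC and SESN3 differed from each other more than those of GRB10.

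INTS3, a subunit of the Integrator complex, had the largest rise of the 15, from 1.83 and 2.30 CPM to 17.9 and 21.7 CPM (log2 fold change 3.26, SE 0.30), and it shares 3.75% of its exon length with the opposite strand. KIAA0895, now MATCAP2, had 0.65 and 2.74 CPM against 9.55 and 8.32 CPM (log2 fold change 2.41, SE 0.81). The others were TMEM150A, CA8, PLD4, HSPA4L and SIRPB2, with log2 fold changes between 1.42 (SIRPB2, a signal regulatory protein) and 1.69 (TMEM150A, a membrane protein). PLD4, a nuclease of the lysosome, had 5.85 and 8.92 CPM against 25.6 and 16.5 CPM and shares 17.1% of its exon length with the opposite strand. All 15 were also called higher without either scramble+ATRA library, with log2 fold changes between 1.21 and 3.10 without replicate 1. Without shKDM3B+ATRA replicate 1, 10 of the 15 were called, and likewise 10 without replicate 2. CRISP3, ALCAM, GRB10, MPO and FAM46A had an adjusted p under 0.05 when genes without opposite-strand overlap were fitted alone (edgeR quasi-likelihood).

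**Figure D3:**
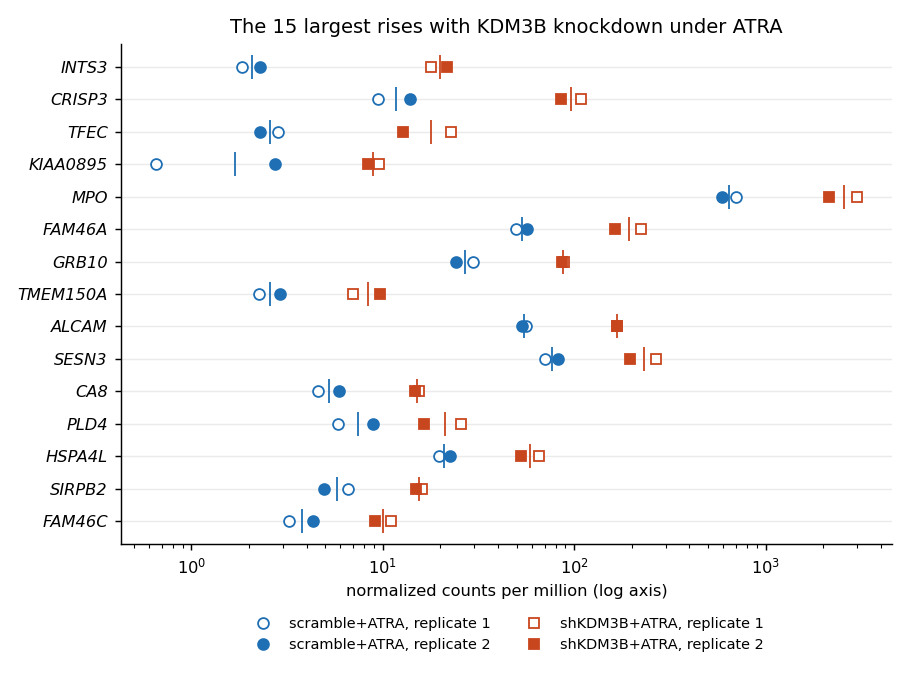
Normalized CPM (log axis) of the 15 genes with the largest rises, with symbols as in the plot of the largest falls. In every row both squares lie right of both circles, as a call requires. MPO is the most abundant gene, with 3016 and 2139 CPM in the knockdown libraries.

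The fit of genes without opposite-strand overlap held 6 further genes with an adjusted p under 0.05 (edgeR quasi-likelihood), of which TGM3 belongs to a list described below and 5 are named here because of these values. YWHAE, which encodes the 14-3-3ε adaptor protein, had 88.4 and 73.0 CPM in scramble+ATRA and 17.5 and 15.4 CPM in shKDM3B+ATRA (log2 fold change -2.30, SE 0.18). IL2RG, the common γ chain of cytokine receptors, had 91.3 and 120 CPM against 18.99 and 24.97 CPM (log2 fold change -2.26, SE 0.24). C19orf38, a membrane protein of immune cells, fell from 37.2 and 34.0 to 9.45 and 11.5 CPM, and PTMS, which encodes parathymosin, from 30.7 and 27.4 to 8.53 and 9.10 CPM. MAGEB2, a cancer/testis antigen of the X chromosome that most somatic cells keep silent, rose from 2 and 1 counts in the scramble+ATRA libraries to 103 and 76 counts in the knockdown, and no fold is given for so few control counts.

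Gene lists were then described by their counts of called members, to be read against 4.37% lower and 2.42% higher among all genes and a median log2 fold change of 0.03. These counts moved with single libraries, so beside them stand those of the fits without scramble+ATRA replicate 1, scramble+ATRA replicate 2, shKDM3B+ATRA replicate 1 and shKDM3B+ATRA replicate 2, called the 4 reduced fits and given in this order. Over all genes, 8.19%, 13.3%, 0.624% and 1.45% were called lower in them and 8.69%, 23.1%, 0.265% and 0.438% higher. Of 160 named genes that were called, 53 stayed called in every reduced fit. Besides genes already described these included RNASE2, MMP8, ITGAL, FCER1G, CD52, ICAM3, TGM2, CYP4F12, TBXAS1, CEBPB, ETS1, EGR3, CCL2, IFITM2, CDKN1A, BCL2A1, DDIT4, HK1, HK3, CD36 and PLEKHO1. Of the S100 family, 7 of 12 members tested (15 listed) were called lower and 0 higher, with a median of -1.31. S100A6 fell from 6.50 and 7.24 to 2.03 and 2.52 CPM (log2 fold change -1.59), and S100A11 from 159 and 164 to 84.4 and 114 CPM (log2 fold change -0.71). S100A12, another calgranulin, had 23 and 41 counts in the controls and 2 and 2 in the knockdown, and S100Z had 21 and 15 against 0 and 2. Both passed the count filter only through the control libraries, as did FPR1, LIF, CAMP and CYP4F12 in lists below. Such falls add no support to the counts of called members. The members not called were S100P, S100A4, S100A10, S100A1 and S100A13, with log2 fold changes between -1.03 and -0.11. The reduced fits called 11, 8, 3 and 6 of the S100 genes lower.

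All 7 subunits of the NADPH oxidase, the enzyme of the neutrophil oxidative burst, were lower in both knockdown libraries than in both controls. Of all genes tested, 23.5% lay so. Of the 7 subunits, 5 were called lower. CYBB, the catalytic gp91phox subunit, had 1747 and 1937 CPM in scramble+ATRA and 812 and 994 CPM in shKDM3B+ATRA (log2 fold change -1.03, SE 0.17). CYBA, its p22phox partner in the membrane, had 441 and 321 CPM against 196 and 231 CPM (log2 fold change -0.84). NCF4, a cytosolic subunit, had 18.6 and 27.4 CPM against 11.5 and 12.2 CPM (log2 fold change -0.96). NCF1 had 1092 and 715 CPM against 347 and 448 CPM (log2 fold change -1.19), a value that is uncertain because near-identical pseudogenes share its reads. The median of the 7 was -0.96. In the reduced fits 5, 5, 1 and 2 of them were called lower.

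Granule genes were listed in a late and an early set. Of 12 specific and gelatinase granule genes tested (22 listed), 6 were called lower, 1 higher (CRISP3), and the median was -0.72. CYBB, counted above with the NADPH oxidase, is also among these 6, so the lists are not separate observations. MMP8, the neutrophil collagenase, had 30.7 and 46.6 CPM against 8.53 and 9.68 CPM (log2 fold change -2.08, SE 0.30). FCN1, a lectin of the gelatinase and ficolin granules, had 84.4 and 36.3 CPM against 6.70 and 15.3 CPM (log2 fold change -2.45), with control libraries that differed from each other. CAMP, the cathelicidin precursor, was low in all libraries, at 1.83 and 1.85 CPM against 0.406 and 0.484 CPM. CEACAM1 fell with a log2 fold change of -1.36 (15.7 and 10.6 CPM against 3.76 and 6.48). The lactoferrin and lipocalin genes LTF and LCN2 had at most 1 count in any of the 4 libraries and were not tested. Lower calls of this late set numbered 6, 6, 2 and 4 in the reduced fits.

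Of 16 azurophil granule genes tested (20 listed), 2 were called lower and 1 higher, with a median of -0.32. In the fit without opposite-strand overlap 1 of 12 was called lower and 2 higher. The summed level of the list was 4185 and 6039 CPM in scramble+ATRA and 8674 and 8386 CPM in shKDM3B+ATRA, most of it from MPO and SRGN, the serglycin gene (1983 and 3394 CPM against 4024 and 4607, not called). MPO was the gene called higher. RNASE2, the eosinophil-derived neurotoxin, had 60.8 and 62.2 CPM against 22.8 and 28.8 CPM (log2 fold change -1.25, SE 0.18), and BPI, which binds bacterial endotoxin, 55.6 and 53.5 CPM against 36.2 and 36.1 CPM (log2 fold change -0.59). The elastase gene ELANE had 0 counts in all 4 libraries, and PRTN3 and AZU1 at most 11 and 14, so that of the serine proteases that define promyelocytes CTSG alone was tested (3.96 and 2.21 CPM against 1.93 and 1.65 CPM). Counts this low need not mean absent RNA, as the ribosomal protein gene RPS18 had at most 2 counts in any of these libraries. LYZ, the lysozyme gene, had a log2 fold change of 0.05. The reduced fits called 5, 4, 1 and 1 members of the early set lower and 1, 2, 1 and 1 higher.

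Of 41 receptors of maturing myeloid cells tested (52 listed), 13 were called lower and 1 higher (ALCAM), with a median of -0.83. The lower members included ADGRE1 and ADGRE3, described above. CD52, a small glycoprotein of leukocytes, had 208 and 188 CPM against 46.9 and 64.5 CPM (log2 fold change -1.83), and FCER1G, the signalling chain of Fc receptors, 44.3 and 55.4 CPM against 12.6 and 19.9 CPM (log2 fold change -1.61). CSF3R, the G-CSF receptor that drives granulopoiesis, had 265 and 232 CPM against 134 and 134 CPM (log2 fold change -0.89, SE 0.13).

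CXCR4, the receptor that holds precursors in the marrow, had 102 and 150 CPM against 37.0 and 56.0 CPM (log2 fold change -1.44), and IL6R 198 and 130 CPM against 72.6 and 70.2 CPM (log2 fold change -1.20). LTB4R, the leukotriene B4 receptor, fell with a log2 fold change of -0.80 and ADGRE2 with -0.83. TNFRSF1B, a TNF receptor, fell with -0.89. FPR1, the receptor for formyl peptides, had 36 and 33 counts in the controls and 0 and 3 in the knockdown. ICAM3 had 425 and 372 CPM against 162 and 196 CPM (log2 fold change -1.15) and is uncertain, since 75.4% of its exon length is overlapped on the opposite strand. Of the 41 receptors, 21, 24, 6 and 14 were called lower in the reduced fits.

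Integrins moved in both directions. Of 13 tested (16 listed), 2 were called lower and 3 higher. ITGAM, the CD11b chain used as a marker of granulocytic differentiation, had 209 and 148 CPM against 100 and 102 CPM (log2 fold change -0.82, SE 0.21), and ITGAL, the CD11a chain, 44.04 and 40.96 CPM against 20.4 and 19.8 CPM (log2 fold change -1.08). The 3 that rose were ITGA4 (253 and 136 CPM against 444 and 412, with an overlap of 26.4% on the opposite strand), ITGA5 (75.0 and 64.2 CPM against 104 and 108) and ITGAV (20.6 and 23.0 CPM against 34.6 and 36.0), with log2 fold changes of 1.14, 0.61 and 0.69. In the reduced fits 3, 4, 1 and 2 integrins were called lower and 3, 2, 0 and 0 higher.

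Genes of retinoid handling and retinoid receptors had 5 of 17 members tested (26 listed) called lower and 0 higher, with a median of -0.46. Besides CYP26A1 these were TGM2, RARRES3, RXRA and DHRS3. TGM2, the tissue transglutaminase that ATRA induces strongly in APL cells, was the most abundant, with 5629 and 4923 CPM against 2187 and 2448 CPM (log2 fold change -1.19, SE 0.15). RXRA, the partner of the retinoic acid receptors on DNA, had 56.0 and 48.5 CPM against 27.1 and 35.9 CPM (log2 fold change -0.73), and DHRS3, which reduces retinal, 139 and 157 CPM against 75.8 and 104 CPM (log2 fold change -0.72). RARRES3 (now PLAAT4), named for its induction by retinoids, had 18.3 and 24.8 CPM against 7.21 and 10.4 CPM (log2 fold change -1.29). Of 5 transglutaminases tested (8 listed), TGM2 and TGM3 were called lower, and TGM3 had 71.6 and 65.5 CPM against 15.4 and 16.3 CPM (log2 fold change -2.11, SE 0.14). The retinoid list had 7, 8, 2 and 3 lower calls in the reduced fits and the transglutaminases 3, 4, 2 and 3.

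In the eicosanoid pathway, 4 of 14 genes tested (25 listed) were called lower and 0 higher. Besides CYP4F3, its relative CYP4F12 had 3.66 and 3.44 CPM against 0.508 and 0.581 CPM. ALOX5AP, which presents arachidonic acid to 5-lipoxygenase, had 1133 and 1339 CPM against 614 and 809 CPM (log2 fold change -0.80, SE 0.21), and TBXAS1, the thromboxane synthase, 111 and 97.2 CPM against 45.4 and 55.9 CPM (log2 fold change -1.04). The reduced fits called 6, 6, 3 and 5 of the 14 lower and 0, 4, 0 and 0 higher.

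Of 51 myeloid transcription factors tested (61 listed), 8 were called lower and 2 higher, with a median of -0.21. CEBPB, a factor of ATRA-driven and emergency granulopoiesis, had 177 and 113 CPM against 42.6 and 44.8 CPM (log2 fold change -1.73, SE 0.27), and CEBPD 81.1 and 74.0 CPM against 47.2 and 51.7 CPM (log2 fold change -0.65). CEBPA, the factor of granulocyte commitment, had a log2 fold change of 0.11, and SPI1, which encodes PU.1, had 478 and 291 CPM against 216 and 249.5 CPM (log2 fold change -0.72), and neither was called, SPI1 missing the P-value threshold alone.

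ETS1 and ETS2 fell with log2 fold changes of -1.28 and -0.67, ID1 with -1.37, and the low genes NR4A1 and GATA1 with -2.33 and -2.83 from at most 5.56 CPM. The 2 factors that rose are known for immature progenitors. MYB had 152 and 220 CPM against 367 and 347 CPM (log2 fold change 0.94, SE 0.23), and LMO2 26.4 and 32.0 CPM against 50.1 and 51.8 CPM (log2 fold change 0.80, SE 0.17). Of the 51 factors, 10, 14, 2 and 4 were called lower in the reduced fits and 4, 3, 0 and 0 higher.

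Immediate early genes, which cells switch on within minutes of a stimulus, had 11 of 27 members tested (30 listed) called lower and 1 higher (SPRED1, log2 fold change 0.83), with a median of -0.68. Of the AP-1 subunits, JUND had 65.9 and 40.1 CPM against 15.5 and 17.1 CPM (log2 fold change -1.70, SE 0.31), JUNB 74.7 and 46.0 CPM against 21.1 and 24.3 CPM (log2 fold change -1.41), and FOSL2 24.5 and 21.3 CPM against 7.41 and 10.3 CPM (log2 fold change -1.37). JUN, EGR1, EGR2 and EGR3 were low, at 8.48 CPM or less, and fell with log2 fold changes between -2.67 (EGR3) and -1.35 (EGR1). HBEGF, a growth factor ligand of the EGF receptor, had 96.7 and 107 CPM against 52.6 and 57.1 CPM (log2 fold change -0.89, SE 0.13). DUSP5, IER2 and IER5 were the others called lower, and IER2 shares 52.2% of its exon length with the opposite strand. The lower calls were 15, 14, 1 and 5 in the reduced fits.

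Among 19 chemokines and cytokines tested (43 listed, 13 of them at 0 counts in all 4 libraries), 5 were called lower and 1 higher, with a median of -1.07. CCL2, the monocyte chemoattractant, had 455 and 680 CPM against 55.3 and 173 CPM (log2 fold change -2.32, SE 0.67), with knockdown libraries that differed from each other. OSM, oncostatin M, had 6.56 and 7.86 CPM against 1.83 and 2.23 CPM, and CCL22 32.3 and 36.5 CPM against 18.8 and 15.5 CPM. IL16 fell with a log2 fold change of -1.10 and an opposite-strand overlap of 35.5%, and LIF had 25 and 16 counts in the controls and 1 and 3 in the knockdown. TNFSF10, which encodes the death ligand TRAIL, was higher, with 4.43 and 7.86 CPM against 14.2 and 14.6 CPM (log2 fold change 1.23, SE 0.38). Of 19 genes of the NF-kB pathway, NFKBID was called lower (log2 fold change -1.15), and NFKBIA, a target of the pathway, had -0.39. In the reduced fits 13, 8, 1 and 2 of the chemokines and cytokines were called lower, and 2, 5, 0 and 0 of the NF-kB genes.

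Of 33 interferon-stimulated genes tested (41 listed), 2 were called lower and 1 higher, and the median was -0.11. IFITM1 and IFITM2 fell with log2 fold changes of -1.50 and -1.09, both uncertain because the family members are alike in sequence, and IFIH1, the viral RNA sensor MDA5, rose with 0.63. Lower calls in this list were 7, 3, 1 and 1 in the reduced fits and higher calls 1, 6, 0 and 0.

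Of the cell cycle lists, those of DNA replication and mitosis held no called gene. None of 50 genes of DNA replication and none of 54 genes of mitosis passed all 3 criteria, with medians of -0.15 and -0.03, although CKAP2 (log2 fold change 0.50) and AURKB (log2 fold change -0.37) had unadjusted P-values under 0.05. Of 13 CDK inhibitors and G1 cyclins, CDKN1A, the p21 gene, was called lower (6.68 and 7.06 CPM against 0.914 and 1.36 CPM, log2 fold change -2.59, SE 0.38) and CCND1, cyclin D1, higher (91.5 and 89.7 CPM against 131 and 143 CPM, log2 fold change 0.60, SE 0.12). Among 31 regulators of apoptosis 4 were called lower: the anti-apoptotic BCL2A1 (217 and 223 CPM against 65.0 and 110 CPM) and the pro-apoptotic BAX, BAD and BBC3, with log2 fold changes of -1.33, -0.71, -0.80 and -2.06. The reduced fits called 2, 6, 0 and 0 replication genes lower and 1, 3, 0 and 1 higher, and 0, 4, 0 and 0 mitosis genes lower and 3, 0, 0 and 0 higher. They called 3, 2, 1 and 2 CDK inhibitors and cyclins lower and 1, 1, 0 and 0 higher, and 4, 7, 1 and 3 apoptosis regulators lower.

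In metabolism, 4 of 27 genes of glycolysis and the pentose phosphate pathway were called lower and 0 higher, with a median of -0.25. HK3, the hexokinase of myeloid cells, had 154 and 117 CPM against 59.0 and 61.9 CPM (log2 fold change -1.17, SE 0.18). PFKFB3, which makes the activator of phosphofructokinase, fell with a log2 fold change of -1.01, the glucose transporter gene SLC2A3 with -0.92, and HK1, listed at 7.03 CPM or less in every library, with -3.14. CD36, a scavenger receptor for oxidized lipids, had 20.5 and 27.6 CPM against 5.38 and 4.07 CPM (log2 fold change -2.35, SE 0.32), and the lipase gene PNPLA2 was the other of 18 lipid genes called (-0.67). Of 23 genes of ATF4 and amino acid stress, SLC7A11, PCK2 and DDIT4 were called lower (log2 fold changes of -0.96, -0.93 and -0.87) and VLDLR higher (1.12). In the reduced fits 4, 7, 2 and 4 genes of glycolysis, 3, 3, 1 and 1 lipid genes and 4, 5, 1 and 2 ATF4 genes were called lower.

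Of 32 genes of cholesterol and fatty acid synthesis, PMVK was called lower (-1.16) and LSS higher (1.17). No gene of 24 for protein folding in the endoplasmic reticulum was called (EDEM1, which routes misfolded proteins to degradation, had the smallest P-value of them at a log2 fold change of 0.58), and none of the 13 mitochondrially encoded proteins, of which MT-CO3 had the smallest at -0.53. The synthesis list had 3, 1, 0 and 0 lower and 3, 15, 0 and 0 higher calls in the reduced fits. The folding list had 2, 0, 0 and 0 lower and 0, 3, 0 and 0 higher calls, and the mitochondrial list 0, 2, 0 and 0 lower and 0, 4, 0 and 0 higher.

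Most cytosolic ribosomal protein genes were lower by small amounts, and most were not called. Of 77 tested (78 listed), 27 were called lower and 0 higher, 63 lay below both controls in both knockdown libraries against 23.5% of all genes, and the median was -0.53. They took 6.24% and 6.16% of the counts on genes in the scramble+ATRA libraries and 4.41% and 4.68% in the shKDM3B+ATRA libraries, although single genes differed between the controls. RPS3 had 2149 and 1385 CPM against 975 and 1010 CPM (log2 fold change -0.83, SE 0.26), and RPL32 861 and 706 CPM against 446 and 478 CPM. The largest called falls were in RPL35, FAU and RPL37A, between -1.16 and -1.06, and in these the control libraries differed most from each other, as with 798 and 410 CPM for RPL35. The reduced fits called 24, 34, 0 and 1 members lower, and the median was -0.52 without scramble+ATRA replicate 1. Many of these genes have processed pseudogenes that can share reads.

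The study picked 29 genes that PML/RARα binds and that fell in KDM3B-knockdown cells of this series, so their direction is not independent evidence. Of the 27 tested without ATRA, 27 were called lower there. Of 27 tested with ATRA, 7 were called lower and 0 higher, with a median of -0.55. The reduced fits called 13, 11, 1 and 4 lower. The 7 of the comparison were PLEKHO1, CAPG, FGR, PSTPIP1, ALOX5AP, CTNNB1 and SH3BGRL3. FGR, a Src family kinase of myeloid cells, had 534 and 418 CPM against 191 and 242 CPM (log2 fold change -1.13, SE 0.21), and CTNNB1, which encodes β-catenin, 265 and 257 CPM against 154 and 155 CPM (log2 fold change -0.76, SE 0.11).

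**Figure D4:**
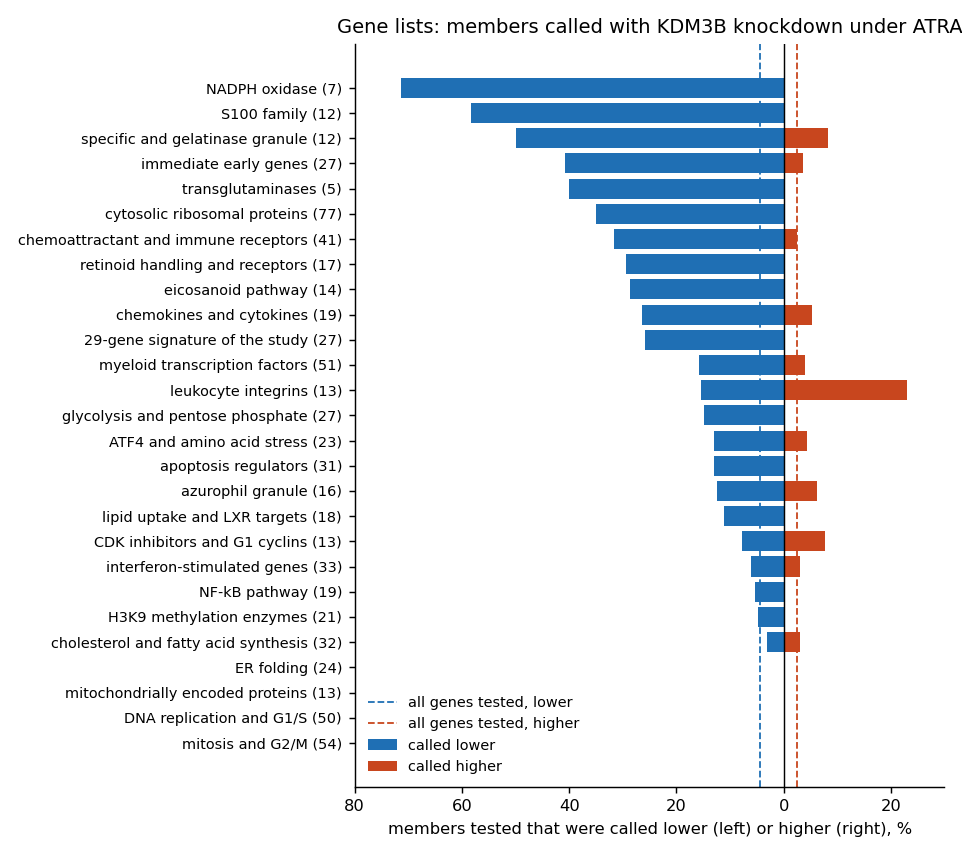
Share of the members tested of each gene list that were called lower (blue, left) or higher (red, right), with the number tested in brackets and dashed lines at the shares over all genes tested, 4.37% and 2.42%. The NADPH oxidase, S100 and specific granule lists lie at the top, and no member of the replication, mitosis, endoplasmic reticulum folding and mitochondrial lists was called.

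Markers of other blood cells and tissues were checked in the same libraries. The summed level of 9 monocyte and macrophage markers was 30.03 and 34.08 CPM in scramble+ATRA and 10.7 and 14.4 CPM in shKDM3B+ATRA, with 4 markers at 3 or fewer counts in every library. The 9 T and NK cell markers summed to 484 and 481 CPM against 372 and 344 CPM, nearly all from CD4, which monocytic cells also express (451 and 432 CPM against 357 and 321). NKG7, a granule protein also found in other blood cells, was called lower (32.3 and 46.6 CPM against 14.3 and 22.0 CPM). The 6 B cell markers summed to 22.8 and 25.4 CPM against 13.6 and 16.5 CPM, with CD79A called lower (log2 fold change -1.09). Erythroid, megakaryocyte, epithelial and fibroblast markers summed to at most 24.3 CPM in any library, and none was called. The 8 promyelocyte markers summed to 1385 and 1067 CPM against 3429 and 2590 CPM, most of it MPO, which was the 1 of 5 tested that was called, and the median of the 5 was -0.05. Of these markers MPO, SPI1 and CEBPA had at least 93.0 CPM in every library, while ELANE was at 0, which need not mean absent RNA.

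The same knockdown without ATRA was measured in 4 other libraries, scaled separately, in which 477 of 13855 genes (3.44%) were called higher and 487 (3.51%) lower. Of the 624 genes lower under ATRA, 525 were tested there, 126 (24.0%) were also called lower and 5 higher. Of the 345 higher genes, 293 were tested, 83 (28.3%) were also called higher and 3 lower. The genes called lower under ATRA had a median of -0.29 without it, and those called higher a median of 0.41. The difference between both knockdown effects was tested with an interaction term in a fit of the 8 libraries, which gave 607 of 13528 genes (4.49%) with an unadjusted P-value under 0.05 and 0 at an adjusted p under 0.05 (edgeR quasi-likelihood), so differences of single genes between the settings rest on unadjusted P-values.

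S100A9 was at 8.87 and 3.70 CPM in scramble and 3.24 and 4.10 CPM in shKDM3B cells without ATRA, where its log2 fold change was -0.76, and the difference between the settings was -2.88 (SE 0.53, adjusted p 0.965 by edgeR). CYP4F3 was below 1 CPM in all 4 untreated libraries. CRISP3 had 0 counts and SELP and TGM2 at most 1 in any untreated library, so their differences with ATRA were in genes hardly counted without it. MPO was at 4299 and 5352 CPM in scramble and 8346 and 9551 CPM in shKDM3B cells without ATRA (log2 fold change 0.89, SE 0.15), and rose in the knockdown in both settings, with a difference of 1.10 (SE 0.28). ADGRE1 and ADGRE3 fell about as far without ATRA (log2 fold changes of -3.47 and -3.39), with differences between the settings of 0.10 (SE 0.40) and 0.54 (SE 0.70).

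YWHAE went the other way without ATRA, where it rose with a log2 fold change of 1.22, and its difference was -3.52 (SE 0.42, adjusted p 0.757 by edgeR). CCL2 fell further without ATRA, with a log2 fold change of -5.41 and a difference of 3.09 (SE 1.24). Over all genes of the interaction test, 415 (3.07%) had an unadjusted P-value under 0.05 towards lower values with ATRA and 192 (1.42%) towards higher. Of 27 immediate early genes, 9 had one towards lower values and 0 towards higher. The ribosomal protein genes had 34 of 77 and 0, with 0 of 77 called and a median of -0.07 without ATRA. Other lists also held falls without ATRA. Of the S100 family, 7 of 10 tested there were called lower (median -0.80), and 3 of 12 had such an interaction towards lower values. Of the receptors of maturing myeloid cells, 11 of 37 were called lower without ATRA and 2 higher, with 5 of 41 interactions towards lower and 4 towards higher values. Of the NADPH oxidase subunits 3 of 7, and of the specific and gelatinase granule genes 3 of 7 tested, were called lower without ATRA, with 0 of 7 and 2 of 12 interactions towards lower values. In these interactions the libraries with about 50% of reads outside genes were 3 of the 4 with ATRA and none of those without, and their part in the differences was not tested.

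**Figure D5:**
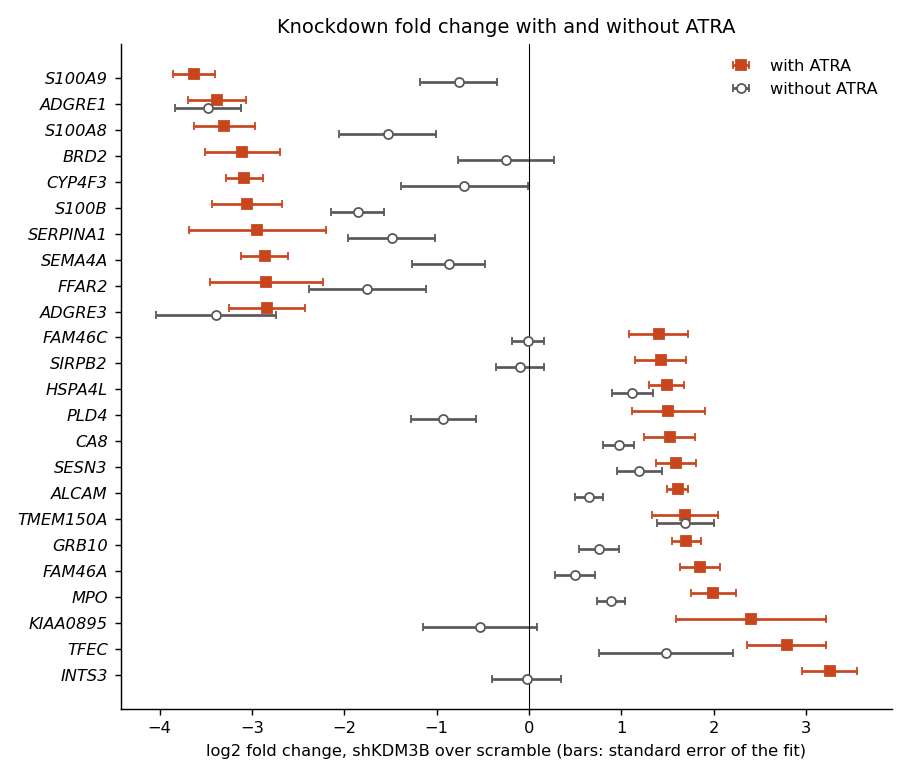
Log2 fold change of shKDM3B over scramble with ATRA (squares) and without ATRA (circles), with bars of 1 standard error, for the 24 leading genes tested in both settings. S100A9 lies at -3.63 and -0.76, whereas ADGRE1 and TMEM150A lie at nearly the same value in both.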

How the data were processed

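RNA from 4 ATRA-treated NB4 libraries (2 scramble+ATRA, 2 shKDM3B+ATRA) was analysed, with 4 untreated libraries for the side comparison. The deposited files hold whole-number read counts per gene name, which the authors made with HISAT2 (hg38) and HTSeq, without normalization; versions were not given in the sources used here. Gene names in the files are of the Ensembl kind, although a RefSeq annotation is given in the study's methods. Names starting with "__" were left out of library sizes and tests. The depth, 9708739 to 16882512 counts on genes, sets the precision of low genes, and a change to or from 3 or fewer counts in both libraries of a group is given as counts. Such values cover counting error only.

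Groups were taken from the labels. Genes were filtered with filterByExpr, scaled by TMM and tested with edgeR 4.0.16 (R 4.3.3) by the quasi-likelihood F test with Benjamini-Hochberg adjustment over all genes. SE is the log2 fold change divided by the square root of F. CPM values are counts divided by the TMM-scaled library sizes. A call needed an unadjusted P-value under 0.05, a fold change of at least 1.5 (both as in the study) and no overlap between groups. With 2 libraries per group the smallest two-sided permutation p is 0.333. Positions and exon overlaps came from GENCODE v44 (bedtools 2.31.1), in which 12095 of 14281 tested names matched by current or older symbol.

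The 35 gene lists, the comparison and the rule for named genes (KDM3B, called list members with up to 4 others for lists with fewer than 4, the 15 largest rises and falls at a mean of at least 5 CPM without clone names, and genes with an adjusted p under 0.05) were chosen with earlier results of these data known. Alternatives were other scalings, filters, DESeq2 1.42.0, all 8 libraries in one fit, a replicate block, adjusted P-values and leaving out each library. The fit of genes without opposite-strand overlap was added after seeing the data. Some members of the lists are counted but not reported by name here.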

Additional observations from a re-analysis of the deposited data

Results flagged for a closer look

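The interaction test of the 8 libraries gave an unadjusted P-value under 0.05 for 17 of the 30 leading genes, against 607 of all 13528 genes (4.49%). These genes were chosen for their large fold changes with ATRA, which also enter the difference, and all 17 differences have the direction of that choice, so their number and direction are not a result. No gene of that test had an adjusted p under 0.05 (edgeR quasi-likelihood), the smallest being 0.965 among these genes, so each is a value to look at again. The difference is the log2 effect with ATRA minus that without, given with its SE.

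Towards lower values with ATRA, the differences were -2.88 (SE 0.53) for S100A9, -2.39 (SE 0.66) for CYP4F3, -1.99 (SE 0.60) for SEMA4A, -2.85 (SE 0.87) for BRD2, -1.78 (SE 0.56) for S100A8 and -1.20 (SE 0.44) for S100B. CYP26A1 (-3.35, SE 1.10) and ORM1 (-2.45, SE 0.99) had too few counts without ATRA to be tested there alone.

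Towards higher values, the differences were 3.29 (SE 0.59) for INTS3, 0.96 (SE 0.19) for ALCAM, 1.42 (SE 0.29) for FAM46C, 2.44 (SE 0.55) for PLD4, 1.51 (SE 0.38) for SIRPB2, 1.10 (SE 0.28) for MPO, 1.35 (SE 0.36) for FAM46A, 0.94 (SE 0.32) for GRB10 and 2.92 (SE 1.03) for KIAA0895. PLD4 was the only 1 of the 17 called in opposite directions, with a log2 fold change of 1.51 with ATRA and -0.93 without. The libraries with about 50% of reads outside genes were 3 of the 4 with ATRA, and their part in these differences was not tested.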

How the results depend on the processing

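Adjusted P-values gave 0 and 0 genes by edgeR, against 345 higher and 624 lower in the comparison as reported. Leaving out each library in turn gave 40 to 3397 genes higher and 94 to 1951 lower, with the highest counts without scramble+ATRA replicate 2 and the lowest without shKDM3B+ATRA replicate 1. With 1 library left in a group, that library is assumed to vary like the others. Same-numbered libraries deviated together with a correlation of 0.0360, so the numbers were not taken as pairs, and the replicate block gave 179 higher and 342 lower genes. Scalings, filters, DESeq2, all 8 libraries in one fit and the genes without opposite-strand overlap kept both counts within 1.5 times.

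The log2 fold change of KDM3B lay between -1.84 and -1.13 as each library was left out and missed the P-value threshold without either knockdown library (-1.46 and -1.59). Its adjusted p was 0.502 (edgeR quasi-likelihood) at -1.53, as was that of S100A9 at -3.63, which stayed called with each library left out (-3.86 to -3.42). The number of genes whose knockdown effect differed with ATRA by at least 1.5-fold at an unadjusted P-value under 0.05 was 540, 941 without the low-count filter, and 285 to 2432 as each library was left out. Of 2035 gene values under the alternatives, 1762 kept their call and direction, 273 lost the call and 0 reversed. The adjusted P-values entered this total for 2 genes only, both of which lost the call, although no gene passed them by edgeR. Of the 160 gene values in each fit without 1 library, 106 lost the call without shKDM3B+ATRA replicate 1 and 82 without its replicate 2, against 20 and 4 without scramble+ATRA replicates 1 and 2. The cause of these changes was not tested.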
